A study of Mus musculus with 2 samples.

Results

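The 10 genes described here encode heat shock proteins of the cytosol and the mitochondrion: Hspa1a, Hspa1b, Hspa8, Hsp90aa1, Hsph1, Hspb1, Dnajb1, Hspd1, Hspe1 and Hspa9. Their probe sets were taken by gene symbol, as those that the platform annotation assigns to 1 of these genes and to no other. This gave 24 probe sets for the 10 genes, out of 12393 genes named alone by at least 1 probe set. Of the 24 probe sets, 21 reached the minimum signal used here and they read 9 of the 10 genes, since the only probe set of Hspa1a did not.

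The study measured liver RNA on 2 one-colour Affymetrix arrays, 1 for each diet. All mice were 2-month-old females with the genetic background C57BL/6J, and by their labels all carried a homozygous knockout of the apolipoprotein E gene, a model of raised plasma cholesterol whose label is checked against the Apoe signal below. The diet of 1 group of 6 mice was chow with 10% (w/w) olive oil, and the diet of the other 6 was the same chow with 10% (w/w) olive oil that was rich in maslinic acid, a triterpene of the olive fruit. Both were fed for 4 weeks, and no group without added oil was analysed here. Whether an array carried RNA of 1 mouse or of a pool is not stated in the labels, and with 1 array per diet no difference has a replicate check, a standard error or a p-value.

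Heat shock proteins are molecular chaperones, which bind unfolded proteins and help them to fold, to stay soluble or to enter organelles. In the cytosol, J-domain proteins such as Dnajb1 hand clients to HSP70, and exchange factors such as Hsph1 release them again, while HSP90 acts later on partly folded clients such as kinases and steroid receptors. In the mitochondrion, Hspa9 helps to pull imported proteins through the inner membrane, and Hspd1 and Hspe1 form the chamber in which they fold. After heat or other protein damage the transcription factor HSF1 binds heat shock elements, which are arrays of inverted GAA units spaced by a pair of bases, and raises the inducible members. Liver cells make and secrete much protein and carry high constitutive chaperone levels.

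The promoter windows of the genes are shown because HSF1 binds such arrays, and because Hspa1a and Hspa1b on the one hand, and Hspd1 and Hspe1 on the other, lie side by side in the genome. RefSeq windows of build GRCm38.p6, from 250 bases before to 50 bases after each annotated start, were matched by symbol for 7 of the 10 genes, with 10 windows in all. Hspa8 and Hsp90aa1 had no window, and none is shown for Hspa9. Each sequence below is the 250 bases before the start, read 5′ to 3′ on the strand of the gene. Capitals mark every match to GAANNTTC or TTCNNGAA, each of which reads the same on both strands. The windows of Hspa1a (chr17:34972157-34972406, minus strand), Hspa1b (chr17:34959239-34959488, minus strand), Hspd1 (chr1:55087933-55088182, minus strand) and Hspe1 (chr1:55087898-55088147, plus strand) follow.
Hspa1a: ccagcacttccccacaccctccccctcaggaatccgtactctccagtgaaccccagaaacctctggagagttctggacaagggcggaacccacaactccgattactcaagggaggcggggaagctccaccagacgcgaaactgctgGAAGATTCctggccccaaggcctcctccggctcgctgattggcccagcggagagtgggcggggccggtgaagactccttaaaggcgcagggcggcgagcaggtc
Hspa1b: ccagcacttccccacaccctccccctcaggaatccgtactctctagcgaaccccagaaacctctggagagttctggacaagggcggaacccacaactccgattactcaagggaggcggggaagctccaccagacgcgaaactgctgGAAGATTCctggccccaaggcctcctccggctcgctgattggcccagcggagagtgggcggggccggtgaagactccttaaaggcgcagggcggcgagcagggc
Hspd1: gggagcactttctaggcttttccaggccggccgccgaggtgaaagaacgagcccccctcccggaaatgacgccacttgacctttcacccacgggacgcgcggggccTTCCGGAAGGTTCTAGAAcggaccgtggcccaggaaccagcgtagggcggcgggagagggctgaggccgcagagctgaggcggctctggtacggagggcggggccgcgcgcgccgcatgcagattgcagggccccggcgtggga
Hspe1: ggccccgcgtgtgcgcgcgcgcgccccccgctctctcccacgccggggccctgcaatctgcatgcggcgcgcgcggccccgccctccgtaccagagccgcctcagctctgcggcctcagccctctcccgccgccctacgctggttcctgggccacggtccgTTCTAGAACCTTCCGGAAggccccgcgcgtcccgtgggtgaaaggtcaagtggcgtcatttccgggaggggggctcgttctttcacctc

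The windows of Hspa1a and Hspa1b were near copies, with 4 differing bases of 300 and an identity of 98.7%. Each held a single GAANNTTC match, from base -104 to base -97 before the start. The capitals of Hspd1 and of Hspe1 are the same 18 bases of DNA, chr1:55088059-55088076, read from opposite strands. This run lay from -144 to -127 relative to the Hspd1 start of that window and from -89 to -72 relative to the Hspe1 start. It holds 4 alternating units, an arrangement searched for after it was seen, and 5 of all 32851 windows in the table hold such a run, those of Hspd1, Hspe1, Arpc2, Fam149a and Chordc1. The other window of Hspd1, at a start that lies farther upstream, held no match.

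Among the remaining genes with a window, Hspb1 held GAANNTTC at 2 places, from -117 to -110 and from -97 to -90. Both windows of Hsph1 held TTCNNGAA before the start, at -54 to -47 or at -33 to -26 depending on which of its annotated starts is used, and a run of 3 alternating units just after the start. Dnajb1 held no match in either of its windows. Counting all 10 windows, GAANNTTC was found in 7 and TTCNNGAA in 4, against 7.86% and 8.52% of all 32851 windows of the same length. A run of 3 alternating units, which overlaps both of these motifs, was found in 4 of the 10 windows and in 0.603% of all windows. The 10 windows are not separate pieces of DNA, so these counts are larger than the number of distinct sites. Both windows of Hsph1 hold the same sites, Hspd1 and Hspe1 share a single run, and Hspa1a and Hspa1b are near copies. These are matches of letters, and no binding was measured.

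The knockout was checked first. The Apoe probe set read 407.7 on the array whose label is olive oil and 7630 on that whose label is maslinic acid, 18.7-fold apart. The latter goes against a knockout label, and the former is also above the minimum of 80 used below. Where the probes lie in the gene is not known here. A difference in Apoe between the arrays cannot be told apart from diet in the ratios below. Directions are therefore given only between the arrays by their labels, as the oil-labelled and the maslinic-labelled array. Liver markers were bright on both arrays: Alb, the albumin gene, read 9813 and 8497, and Ttr, the transthyretin gene, 12031 and 10267. All 10 measured hepatocyte markers had a lower signal on the maslinic-labelled array, with log2 ratios from -0.23 to -0.01. With quantile normalization 8 of 10 were lower, and with the loess trend removed 9 were. Their summed signal was 93905 on the oil-labelled and 84332 on the maslinic-labelled array, and the sums that follow are in that order. Of the 10 macrophage markers 6 were higher and 4 lower, with sums of 10573 and 10572. Marco, a macrophage scavenger receptor gene, read 338.1 on the oil-labelled array and 84.6 on the maslinic-labelled array, 4.00-fold lower, and was the one cell type marker at least 1.5-fold apart. The 5 measured endothelial markers of 6 were lower, with sums of 1228 and 1061 over all 6. Of 7 stellate cell markers 4 were measured and 3 of these were higher, with lower sums of 2993 and 2898 over all 7. The brightest of them, Dcn, was lower on the maslinic-labelled array, at 2067.2 and 1809.9. Of 6 lymphocyte markers only Ptprc was measured, with sums of 468 and 434 over the list. Muscle markers, of which 8 were on the array, reached at most 20.9, and cholangiocyte markers at most 34.4, both under the floor. The part of these markers in the results below was not tested.

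Values are MAS5 signals on the linear scale the authors deposited, in which the median probe set read 44.4 on the oil-labelled array and 44.6 on the maslinic-labelled array. A signal under a floor of 40 was taken to have no order. A probe set was counted as measured where it reached 80 on at least 1 array. The log2 ratio divides the maslinic-labelled by the oil-labelled array, so that a negative ratio is a lower signal on the maslinic-labelled array. A probe set at least 1.5-fold apart is described as called. Where a gene needs 1 value, that of its brightest probe set is used. Probe sets of 1 gene share the hybridisation and the RNA, and their spread, an SD of 0.232 in log2 ratio over 1815 genes with several measured probe sets, is the sole repeat measurement available.

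**Figure D1:**
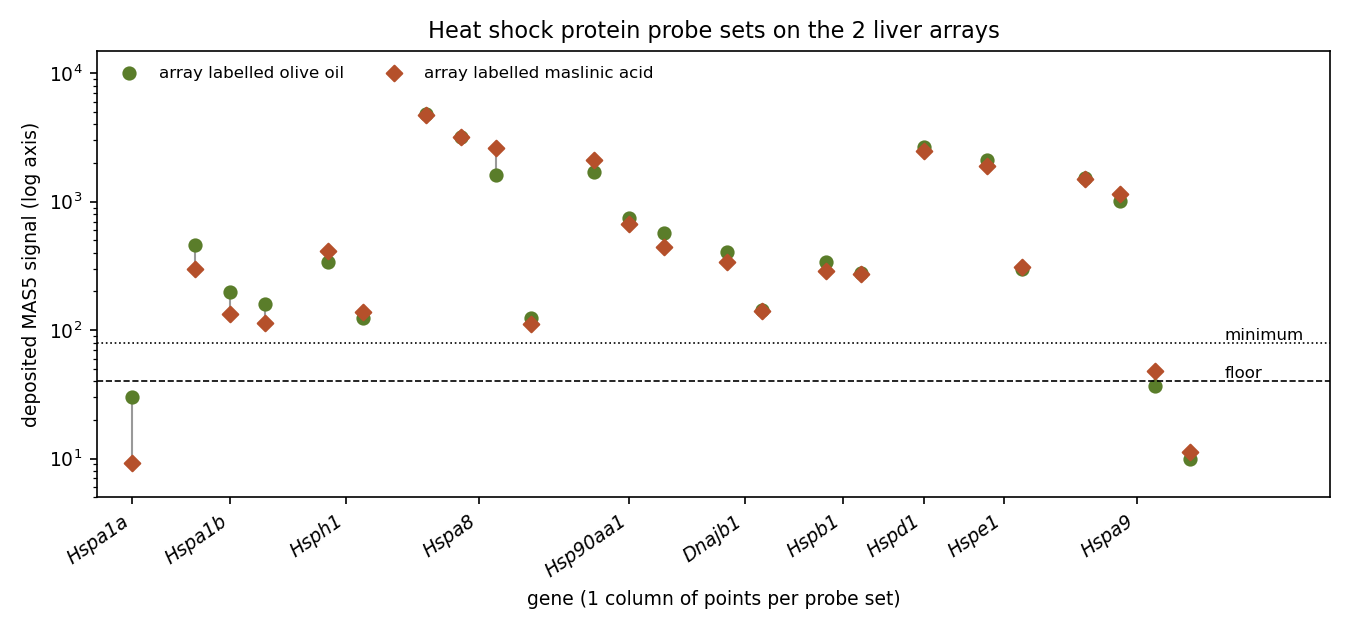
Deposited MAS5 signal (log axis) of each of the 24 probe sets of the 10 heat shock protein genes on the oil-labelled array (circles) and the maslinic-labelled array (diamonds), with the floor of 40 and the minimum of 80 as lines. The 3 probe sets of Hspa1b are lower on the maslinic-labelled array, 1 of 4 probe sets of Hspa8 is clearly higher there, and most other pairs of points nearly coincide.

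The inducible HSP70 gene Hspa1b was lower on the maslinic-labelled array with every probe set. Hspa1b is nearly silent in unstressed cells of many tissues and is among the genes that HSF1 raises most. Its brightest probe set, 1452318_a_at, read 462.5 on the oil-labelled array and 298.0 on the maslinic-labelled array, 1.55-fold lower, a log2 ratio of -0.63. Probe set 1427127_x_at read 198.2 and 133.5, a log2 ratio of -0.57. Probe set 1427126_at read 160.7 and 113.1, a log2 ratio of -0.51. The oil-labelled array thus had the higher signal in all 3, although only the brightest was called.

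The 3 ratios of Hspa1b had a mean of -0.57 and an SD of 0.06, against the SD of 0.232 between probe sets of a gene in general. A range at least as wide as that of Hspa1b was found for 70.0% of the 1815 genes with several measured probe sets, and the rest had closer ratios. Only 556 of the 1815 had at least 3 measured probe sets, and a range tends to widen with their number. The brightest ranked low among all 8525 measured probe sets, of which 1.52% had a ratio as low or lower. Of 556 genes with at least 3 measured probe sets, 86 genes, or 15.5%, had all of them lower on the maslinic-labelled array. Only 2 of the 556 had every ratio at or below the -0.51 of Hspa1b, namely Hspa1b itself and Slc25a30, a mitochondrial carrier gene chosen after its values were seen. That limit is the highest ratio of Hspa1b, so Hspa1b meets it by definition. Probe sets share 1 RNA sample on each array, so their agreement does not measure how mice of a diet differ. In RNA of whole liver, fewer cells of a type and less RNA per cell cannot be told apart.

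Hspa1a, the neighbour of Hspa1b and nearly identical to it in the promoter windows printed above, was read by 1 probe set alone. Its signals were 30.1 on the oil-labelled array and 9.2 on the maslinic-labelled array. Both lie under the floor, so no ratio is given, and Hspa1a could not be compared. Whether the probes assigned to Hspa1b also bind Hspa1a RNA was not tested, since probe sequences were not used here. RNA of Hspa1a and of Hspa1b therefore cannot be told apart in these values.

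Hspa8, the constitutive HSP70 of the cytosol, which also uncoats clathrin vesicles and takes part in chaperone-mediated autophagy, gave different answers with different probe sets. Its brightest probe set, 1455789_x_at, read 4806.5 on the oil-labelled array and 4715.4 on the maslinic-labelled array, a log2 ratio of -0.03. The next, 1420623_x_at, read 3194.6 and 3205.4, a difference of 0.00 on the log2 scale. Probe set 1420622_a_at read 1613.7 and 2603.7, 1.61-fold higher on the maslinic-labelled array and called, while 1431182_at read 124.3 and 111.5, a log2 ratio of -0.16.

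The 4 ratios of Hspa8 spanned 0.85 on the log2 scale. Among the 1815 genes with several measured probe sets, 67 genes, or 3.69%, had a span at least as wide. Only 556 of the 1815 had 3 or more measured probe sets. A span tends to widen with their number, so 3.69% is not a share among genes with as many probe sets as Hspa8. The called probe set stands out among bright ones: of 1288 probe sets with a mean signal of 1000 or more, a limit set after the values were seen, 0.932% were at least 1.5-fold higher. The suffix _x_at marks probe sets in which some probes can bind other transcripts, and _a_at those that read several transcripts of 1 gene. Whether the 4 probe sets read different Hspa8 transcripts was not tested, and the gene as a whole cannot be said to be higher on either array.

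Dnajb1 and Hsph1, which act with HSP70, differed in opposite directions and by less than 1.5-fold. Dnajb1 is an HSF1 target that delivers clients to HSP70 and stimulates its ATPase. Its probe set 1416755_at read 405.5 on the oil-labelled array and 336.6 on the maslinic-labelled array, a log2 ratio of -0.27. The other, 1416756_at, read 142.5 and 140.6, a ratio of -0.02. Dnajb1 was thus lower on the maslinic-labelled array by 1 probe set and nearly level by the other.

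Hsph1 encodes the HSP110 protein that exchanges the nucleotide of HSP70 and, with Hspa1b, is strongly inducible. Its probe set 1425993_a_at read 340.6 on the oil-labelled array and 416.7 on the maslinic-labelled array, a log2 ratio of 0.29. Probe set 1423566_a_at read 124.4 and 139.4, a ratio of 0.16. Both probe sets were higher on the maslinic-labelled array, the reverse of Hspa1b. Of all measured probe sets, 9.17% had a ratio as high as the 0.29 or higher, so that a difference of this size was common on these arrays.

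**Figure D2:**
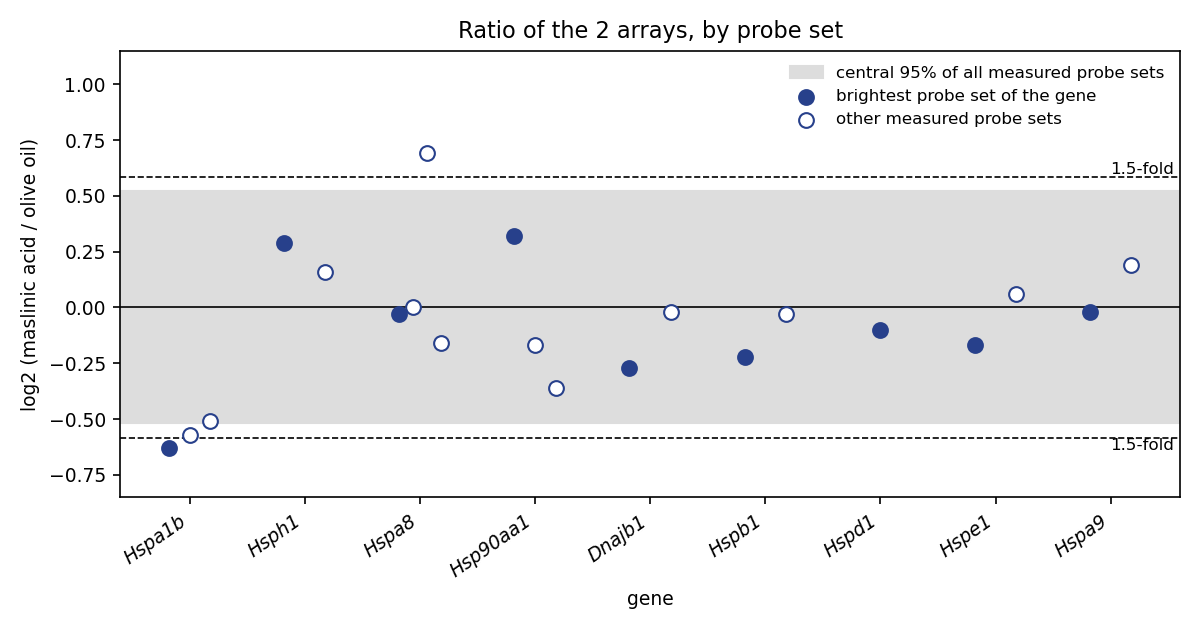
Log2 ratio of the maslinic-labelled array over the oil-labelled array for each of the 21 measured probe sets, by gene, with the brightest probe set of a gene filled. The band holds the central 95% of all measured probe sets, from -0.52 to 0.52, and the dashed lines mark 1.5-fold. Hspa1b lies below the band at -0.63 and -0.57 and at its lower edge at -0.51, and Hspa8 lies above it with 1 probe set.

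Hsp90aa1, the stress-inducible cytosolic HSP90, had probe sets on both sides of zero. Probe set 1438902_a_at, the brightest, read 1705.7 on the oil-labelled array and 2132.5 on the maslinic-labelled array, a log2 ratio of 0.32. Probe set 1426645_at read 752.6 and 671.0, a ratio of -0.17, and 1437497_a_at read 570.2 and 444.9, a ratio of -0.36. The ratios spanned 0.68, a span reached by 127 of the 1815 genes with several probe sets. Only 556 of these had 3 or more measured, so genes with fewer probe sets than Hsp90aa1 are counted too. The mean of the 3 was -0.07 with an SD of 0.35, so the sign for Hsp90aa1 rests on which probe set is read.

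Hspb1, the small heat shock protein that holds unfolded proteins without ATP and binds actin, was slightly lower on the maslinic-labelled array. Probe set 1422943_a_at read 340.2 and 291.1 on the oil-labelled and maslinic-labelled arrays, a log2 ratio of -0.22. Probe set 1425964_x_at read 276.5 and 271.6, a ratio of -0.03. The difference between these ratios, 0.20, was close to the median span of 0.219 for genes with several probe sets.

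The mitochondrial genes Hspd1, Hspe1 and Hspa9 differed little between the arrays. Hspd1, the chaperonin barrel, was read by 1426351_at alone, at 2680.4 on the oil-labelled array and 2499.8 on the maslinic-labelled array, a log2 ratio of -0.10. Hspe1, the lid of the chaperonin, read 2124.5 and 1882.2 with 1450668_s_at, a ratio of -0.17, and 297.4 and 309.4 with 1422579_at, a ratio of 0.06. The brighter Hspe1 probe set has the suffix _s_at, given to sets whose probes match transcripts of more than 1 gene. With their brightest probe sets, the genes that share the 18-base run printed above were thus 1.07-fold and 1.13-fold lower on the maslinic-labelled array.

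Hspa9, the mitochondrial HSP70, was close to level. Its probe set 1418504_at read 1517.5 on the oil-labelled array and 1494.4 on the maslinic-labelled array, a ratio of -0.02. Probe set 1418503_at read 1006.9 and 1152.4, a ratio of 0.19. The other 2 probe sets of Hspa9 were not measured: 1431274_a_at read 36.9 and 48.4, and 1453811_at read 10.0 and 11.2. All 5 measured mitochondrial probe sets lay within 1.2-fold, as did 8 of the 16 cytosolic ones and 79.0% of all measured probe sets. All the mitochondrial ones but the dimmer of Hspe1 had a mean signal above 1000, where ratios scattered less, as described below. Many cytosolic ones were dimmer, and the compartments were not compared at equal signal.

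Taking the probe sets of all 9 measured genes, 7 were higher and 14 lower on the maslinic-labelled array, with a median log2 ratio of -0.03, against 4197 higher and 4318 lower of 8525 and a median of -0.004 over all measured probe sets. Of the 21, 1 was at least 1.5-fold lower (Hspa1b), where 1.89% of all measured probe sets were, and 1 was at least 1.5-fold higher (Hspa8), where 1.77% were. None of the 21 was 2-fold apart. The called Hspa1b probe set had a mean signal of 380, and of 2272 probe sets between 300 and 1000, limits set after the values were seen, 0.880% were at least 1.5-fold lower.

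By gene, with the brightest probe set, Hsp90aa1 and Hsph1 were higher and the other 7 lower, but with quantile normalization Hspa8 and Hspa9 turned to slightly above zero, leaving 5 lower and 4 higher, and with a loess trend on signal removed Hspa8 alone turned. Over all 5911 measured genes 3074 were lower. The median of the 9 genes was -0.10, and that of all measured genes -0.01. Hspa1b was the single gene at least 1.5-fold lower, against 1.57% of all measured genes, and none of the 9 was at least 1.5-fold higher, against 1.47%. With the mean of all its probe sets, Hspa1b had a ratio of -0.57 in place of -0.63, just short of 1.5-fold.

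**Figure D3:**
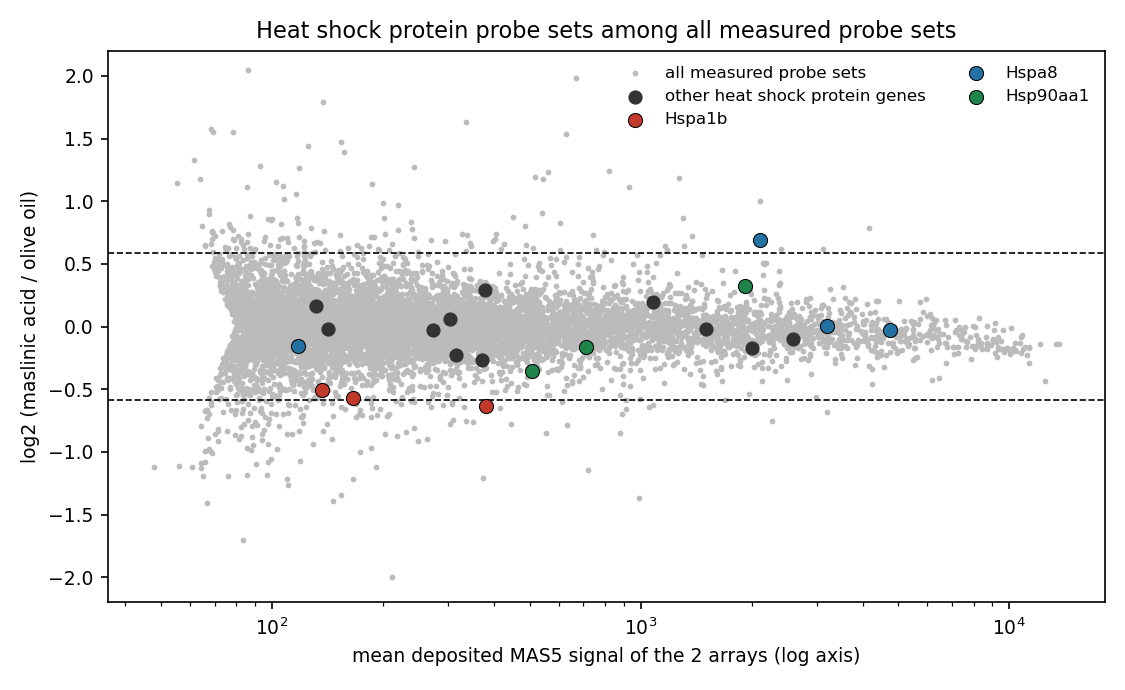
Log2 ratio against mean deposited signal (log axis) for all 8525 measured probe sets (grey; 4 lie beyond the axis limit of 2.2) and the 21 heat shock protein probe sets. The grey points narrow with rising signal, and the Hspa8 probe set at 0.69 lies above most others of its signal, while Hspa1b (red) lies along the lower edge.

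The scatter of the ratios depended on signal. Between probe sets of 1 gene the SD of the log2 ratio was 0.260 for mean signals under 300, 0.186 between 300 and 1000, and 0.153 from 1000 upward. The dim probe sets of Hspa1b, Hsph1, Hspa8, Dnajb1 and Hspb1 lie in the first of these ranges and are the least precise. From 1000 upward 60.6% of probe sets were lower on the maslinic-labelled array, with a median of -0.03. Both Hspd1 at -0.10 and the bright Hspe1 probe set at -0.17 lie in that range, where a low ratio was the more frequent one.

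Other chaperone genes, taken from 10 lists with 92 genes, showed small differences. Of these, 80 were on the array and 64 were measured, of which 31 were higher and 33 lower on the maslinic-labelled array. Of the 64, 1 was at least 1.5-fold lower and none at least 1.5-fold higher, against 1.57% and 1.47% of all 5911 measured genes. Hspbp1, an HSP70-binding exchange factor, had a log2 ratio of 0.14, and Hsbp1, a small protein that binds HSF1, of -0.05 (0.20 with its other probe set). Hsf2 read 6.6 and 0.4 and Hsf4 31.4 and 32.2 on the oil-labelled and maslinic-labelled arrays, both under the floor. Hsf1 was not analysed here.

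Among other HSP70 and HSP110 genes, 3 of 4 measured were lower on the maslinic-labelled array, with a median of -0.23. The lowest was Hspa14, a ribosome-associated HSP70, at 125.8 and 89.3, a ratio of -0.49. Hspa4, a cytosolic exchange factor of the HSP110 group, had a ratio of -0.24 with its brightest probe set and of 0.03 and 0.18 with its others. Hyou1, its counterpart in the endoplasmic reticulum, had -0.22 and, with its other probe set, 0.34. Without probe sets ending in _x_at, _s_at or _a_at, called suffixed here, 2 of the 4 were lower. With the mean of all probe sets 2 of the 4 were also lower, and the median of this list turned to 0.02.

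HSP90 partners were mixed, and none was 1.5-fold apart. Trap1, the mitochondrial HSP90, read 798.3 and 901.6, a ratio of 0.18, and its other probe set gave 0.51. Of 8 measured co-chaperones of HSP90, 5 were higher and 3 lower, with a median of 0.10. Stip1, which links HSP70 to HSP90, had a ratio of 0.17, and the immunophilin gene Fkbp5, a target of glucocorticoids, of 0.20. The lowest was Cdc37l1 at -0.32, and its other probe set gave -0.08.

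Among partners of HSP70 that exchange nucleotide or hold clients, 4 of 8 were higher and 4 lower. Dnajc7, which bridges HSP70 and HSP90, read 217.2 and 146.1, a ratio of -0.57, just short of 1.5-fold, while Bag6 had 0.21 and the exchange factor gene Bag1 had 0.09. Of 15 measured J-domain genes 11 were lower, or 9 with the mean of all probe sets and 10 of 12 without the suffixed ones, with a median of -0.04: Dnajc8 had a ratio of -0.34, Dnajc12 of -0.24 and Dnajb2 of 0.18. Other small heat shock proteins were represented by Cryab at -0.11, Hspb11 at 0.09 and Hspb8 at -0.05 (-0.04 and 0.18 with its other probe sets).

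The chaperonin of the cytosol, TRiC, which folds actin and tubulin, had 7 of 8 measured subunit genes higher on the maslinic-labelled array, or 6 of 8 with equal medians or quantile normalization and 3 of 5 without the suffixed probe sets, and none by 1.5-fold. Its median was 0.05, with Cct7 at 0.22, Cct6a at 0.14 and Cct3 at 0.13. With their other probe sets Cct7 had -0.01, Cct6a 0.05 and Cct3 from -0.04 to 0.11. Prefoldin, which passes clients to TRiC, had 2 of 5 higher, or 3 with the loess trend removed or the mean of all probe sets, with Pfdn2 at 0.16 and Pfdn1 and Pfdn6 at -0.10 each. Of 10 measured partners and proteases of the mitochondrial chaperones, 5 were higher and 5 lower. With the mean of all probe sets 4 were higher and 6 lower, and without the suffixed ones 2 of 7 were higher. Spg7, a subunit of a protease of the inner membrane, was the one gene of all 10 lists at least 1.5-fold apart, at 134.6 and 87.3, a ratio of -0.62. Yme1l1 had -0.39, and 0.08 with its other probe set, and Grpel2, an exchange factor of Hspa9, had 0.22.

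**Figure D4:**
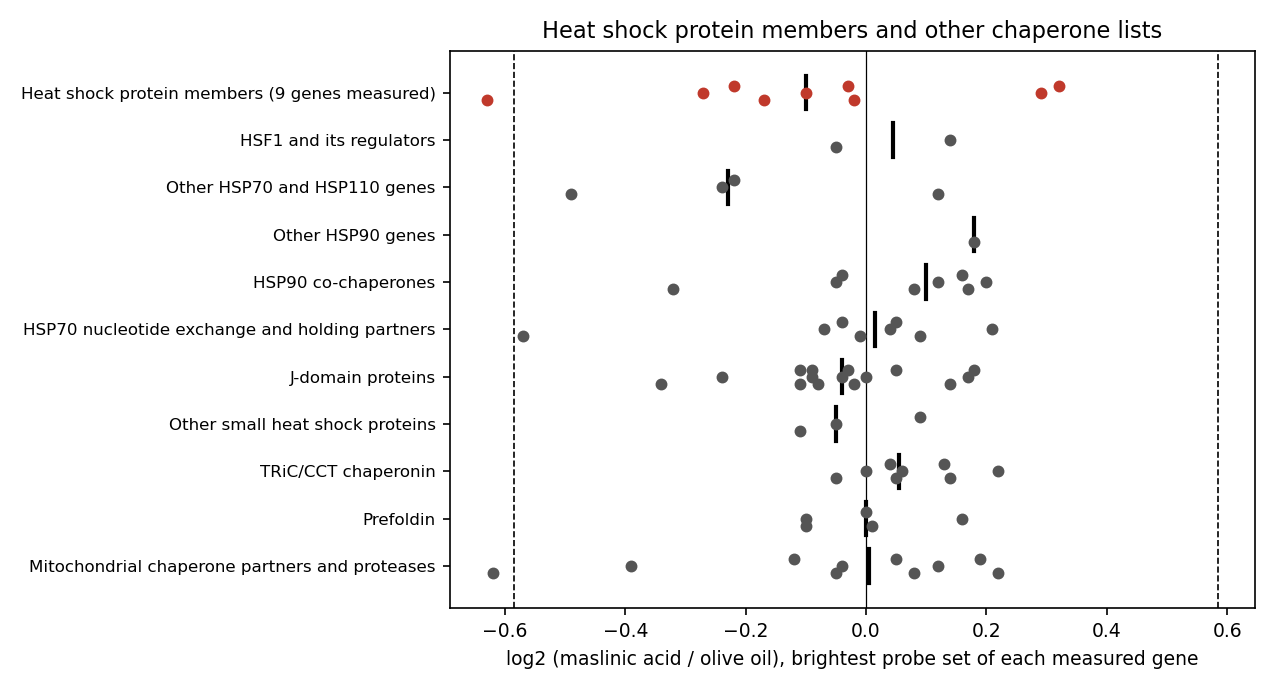
Log2 ratio of the brightest probe set for each measured gene (points) and the median (bars) for the 9 measured heat shock protein genes (red) and the 10 other chaperone lists, with dashed lines at 1.5-fold. Hspa1b at -0.63 and Spg7 at -0.62 are the points beyond 1.5-fold, and the other medians lie between -0.23 and 0.18.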

How the data were processed

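Total liver RNA was labelled as biotinylated cRNA and hybridised to Affymetrix arrays, per the labels' protocols. The deposited values are linear MAS5 intensities, 1 per probe set, per the submitters' processing notes; no version or settings are named in the labels. They were already scaled by the authors (2% trimmed mean of 200.1 on each array) and were used as deposited, without further scaling.

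Of 22690 probe sets, 64 controls were left out. The platform annotation named 1 gene for 20380, several for 691 and none for the rest; 20351 matched a GRCm38.p6 gene by Entrez number. No probe set naming several genes included a heat shock protein gene described here. The floor was 40, the minimum 80 on at least 1 array, and a gene took its brightest probe set. From each chaperone list the 3 measured genes with the largest absolute log2 ratio are named, and Hsf2 and Hsf4 were added after their values were seen. No test was made, with 1 array per diet; the number of arrays limits the precision. Analyses used Python 3.11.15, pandas 2.3.3 and statsmodels 0.14.6, and were tested on simulated data. The genes and lists were chosen with earlier results of these data known. Promoter windows are from RefSeq.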

Additional observations from a re-analysis of the deposited data

How the results depend on the processing

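No paired analysis was possible because there is only 1 array per diet, and for that reason no array could be left out. The 9 alternatives were other scalings (equal medians, quantile, loess with a span of 0.3), floors of 20 and 80, no minimum or one of 160, the mean of all measured probe sets, and leaving out probe sets ending in _x_at, _s_at or _a_at. Of 79 values of the heat shock protein genes, 77 moved by less than the SD between probe sets of a gene. The floors of 20 and 80, no minimum and the minimum of 160 could not change any of these values. The brightest probe set of every measured gene among them read at least 291.1 on both arrays. Equal medians shift every ratio by the same small amount, so much of this count was fixed in advance. Hsp90aa1 moved from 0.32 to -0.07 with the mean of its probe sets and to -0.17 without the suffixed ones. The sign turned 8 times in all: these 2 times for Hsp90aa1, 3 times for Hspa8 and 2 for Hspa9, whose ratios were -0.03 and -0.02, and once for Hspe1, from -0.17 to 0.06 without the suffixed probe sets. With the mean of all probe sets, 0 member genes were at least 1.5-fold lower. Without the suffixed probe sets, 0 member genes and 0 member probe sets were at least 1.5-fold lower and 0 probe sets higher. Hspa1b was then read by 1427126_at alone, at -0.51, and Hspa8 by 1431182_at, at -0.16. The share of all measured genes at least 1.5-fold lower was 1.57% and lay between 0.959% (minimum of 160) and 1.70% (without the suffixed probe sets). The 108 medians under the alternatives were those of the 10 lists, of the member genes and of all measured genes. Of these, 107 moved by less than the SD between probe sets of a gene. The list medians lay from -0.23 to 0.18 at the outset, so a move of that size was unlikely for most. The median of other HSP70 and HSP110 genes moved to 0.02 with the mean of all probe sets. The sign of a median turned 9 times. That of the mitochondrial partners and proteases went from 0.01 to -0.12 without the suffixed probe sets.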
